A study of Mus musculus with 4 samples.

Results

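The genes described here are 41 mouse genes of DNA replication and S phase entry, many of them targets of E2F transcription factors, and 40 of the 41 were measured among 17097 genes on the array. The rule chose them by name. A member was a probe set whose only gene symbol in the platform annotation is a listed gene, and of several probe sets of 1 gene the brightest on average was used. Cdc25a, a phosphatase that activates cyclin-dependent kinases, had no such probe set and was not used here. All values are log2 expression after robust multiarray averaging (RMA), so a difference of 1 is a 2-fold change.

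In G1, replication origins are licensed when the origin recognition complex, Cdc6 and Cdt1 load the Mcm2 to Mcm7 helicase onto DNA. Signaling through RAS, RAF, MEK and ERK raises D cyclins, whose kinases phosphorylate the retinoblastoma protein and release E2F factors, and E2F factors then switch on cyclin E, replication proteins and enzymes of nucleotide supply. Transcripts of these genes are therefore used as a readout of S phase entry in tumors, although immune cells that divide in a tumor make them too.

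The RNA came from 4T1Ch9 tumors, a cherry-tagged derivative of the mouse triple-negative breast cancer (TNBC) line 4T1, grown in the mammary fat pad of female Balb/c mice aged 6 to 8 weeks. Tumors from 50000 injected cells were established for 10 days. Mice then received vehicle (PEG 400/solutol) or trametinib, an inhibitor of the kinases MEK1 and MEK2 (MEKi), at 1 mg/kg daily by oral gavage for 7 days. Each group had 2 arrays of bulk tumor RNA, named here by their labels as MEKi 1, MEKi 2, vehicle 1 and vehicle 2, and the comparison asks whether MEKi changed these genes in the tumor.

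The labels did not pair the arrays by similarity. Over all 45037 probe sets, the array labelled MEKi 1 correlated most closely with vehicle 2 (r = 0.992) and MEKi 2 with vehicle 1 (r = 0.978), whereas the correlation was 0.927 between both MEKi arrays and 0.959 between both vehicle arrays. These values are descriptions over probe sets of 1 normalized table. The median of 15 transcripts known to be induced through ERK was 8.07 and 10.59 in MEKi 1 and 2 and 9.99 and 9.02 in vehicle 1 and 2, so it was lowest and highest in the 2 arrays labelled MEKi. Each result below is therefore given for every array and not by group mean alone, and the arrays are called by their labels throughout. The 11 tumor epithelial markers had medians between 6.54 and 8.25, lowest in MEKi 2. They were split, with 6 higher and 5 lower in MEKi 1 than in MEKi 2. Krt19 was 8.91 in MEKi 1 and 4.52 in MEKi 2, whereas Krt8 was 10.54 and 12.11. The summed linear level of the 11 markers was lowest in MEKi 1, at 4724 beside 8857 in MEKi 2. B cell markers had medians of 9.53 in MEKi 1 and 9.50 in vehicle 2 but 4.18 in MEKi 2 and 4.12 in vehicle 1, the latter close to the lower quartile of the arrays, which lay between 3.85 and 3.88.

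Grouped by label, none of the 40 genes passed the test for a difference between MEKi and vehicle. In the limma fit, two-sided and with Benjamini-Hochberg adjustment over all 45037 probe sets, probe sets were called at p under 0.05, adjusted p under 0.1 and more than 1.5-fold change. The count was 0 of 40 members and 0 of 45037 probe sets (0.0% called), with a lowest adjusted p of 1 over the whole array. Before adjustment 406 probe sets had p under 0.05, and 0 of them stood for a member. The log2 fold changes of members ran from -0.51 for E2f1 to 0.29 for Pold1, with 28 below and 12 above 0. Their median was -0.08, beside 0.01 over all genes. Standard errors had a median of 0.27, and in 38 of 40 members the 2 arrays of at least 1 label were farther apart than the group means. The counts of 28, 12 and 38 were not made over all genes, so they describe the members only.

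The arrays of the 2 labels overlapped for nearly all members. Both MEKi arrays lay above both vehicle arrays in 0 of 40 members, whereas this held for 11.0% of all genes. Both lay below in 3 members (Cdc45, Pcna and Pola1), that is 7.5% of members, beside 10.2% of all genes. Neither share was above its background. No member was in the dimmest 25% of probe sets by mean expression, below 3.88: the lowest member mean was 6.30 and the highest 12.39.

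**Figure D1:**
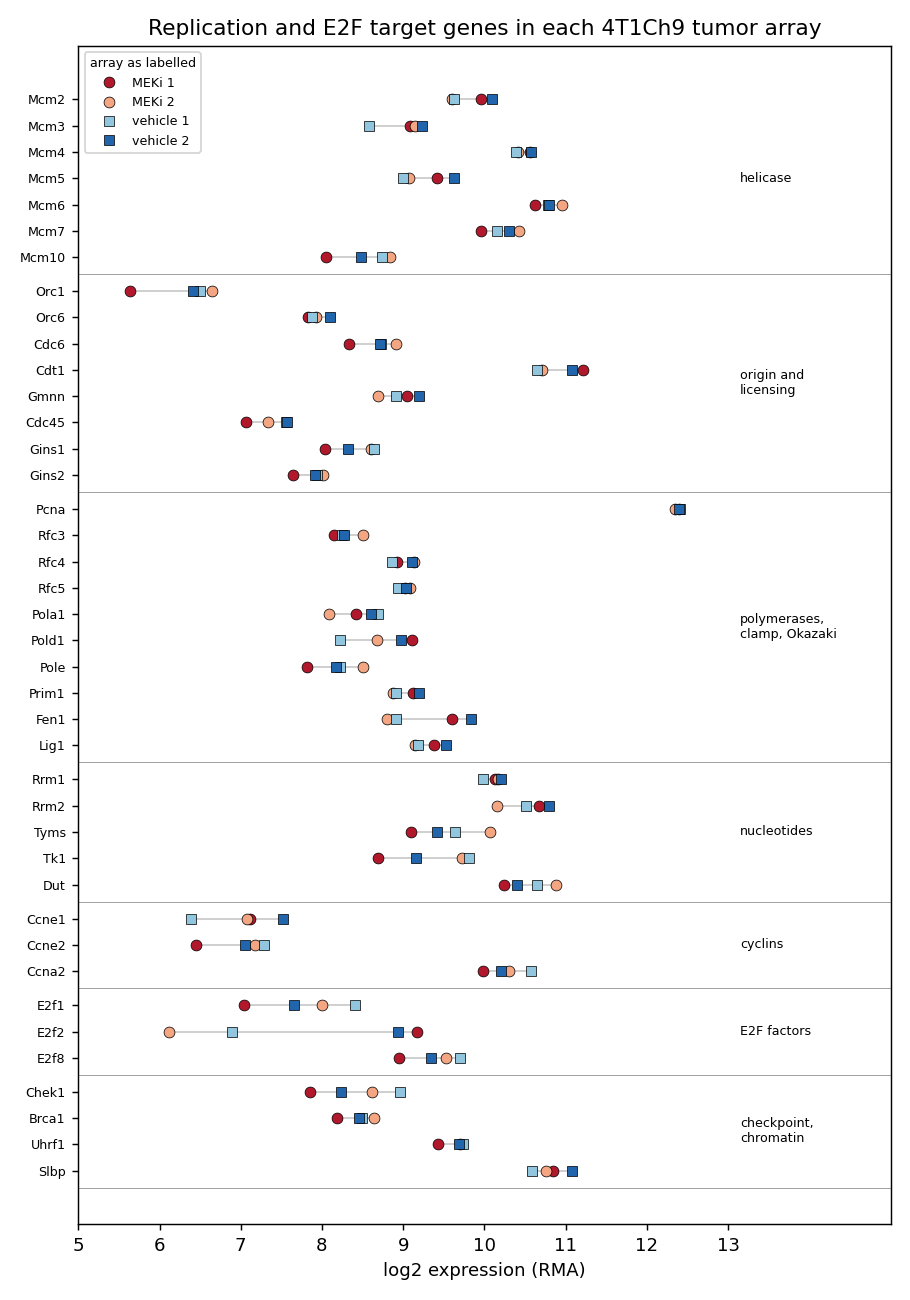
Log2 expression (RMA, x axis) of the 40 measured genes (y axis), grouped by role. Each point is 1 array and the gray line joins the lowest and the highest of the 4. Circles (MEKi) and squares (vehicle) overlap in every gene but Cdc45, Pcna and Pola1, and E2f2 has the widest range, from 6.12 to 9.17.

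The subunits of the Mcm helicase, which unwinds DNA at the fork, differed by 0.19 to 0.79 among the arrays. Mcm2 was 9.96 and 9.61 in MEKi 1 and MEKi 2, and 9.63 and 10.09 in vehicle 1 and vehicle 2. Its highest and its lowest value thus came from arrays of different labels, and its log2 fold change was -0.08 (SE 0.27, limma adjusted p = 1, n = 2 arrays per group). Mcm3 was 9.08, 9.15, 8.58 and 9.24 in MEKi 1, MEKi 2, vehicle 1 and vehicle 2, the order used for every set of 4 values from here on. Only vehicle 1 was apart from the other arrays at this Mcm3 probe set, and the log2 fold change was 0.21 (SE 0.29, adjusted p = 1). A second Mcm3 probe set was instead lowest in vehicle 2 (7.44). Mcm4 was among the 4 members with the narrowest range, with values of 10.56, 10.42, 10.38 and 10.58. Mcm5 spanned 8.996 to 9.63, Mcm6 10.63 to 10.96 and Mcm7 9.95 to 10.43. Mcm10, which helps to activate the loaded helicase, was lowest in MEKi 1 at 8.05 and highest in MEKi 2 at 8.84. At the brightest probe sets, all 7 helicase genes were lower in MEKi 1 than in vehicle 2. Second probe sets of Mcm2 (9.10 against 8.99), Mcm3 (7.81 against 7.44) and Mcm5 (5.37 against 5.12) were higher in MEKi 1. That of Mcm7 was lower (9.78 against 9.98), and those of Mcm10, near the array floor, were split.

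The promoters of Mcm3 and Mcm6 are shown as examples of helicase genes with more than 1 match to the letters that E2F factors are known to prefer. Mcm5, not printed, also had 2 matches, which overlap. Promoters were windows of RefSeq (GRCm38.p6) from 250 bases before to 50 after a start site, and 33 of the 40 measured members had 39 such windows. The capitals mark matches to TTTGGCGC, TTTCGCGC or GGCGGGAA on either strand, and the sequences run 5′ to 3′ along the gene.
Mcm3, chr1:20820263-20820562, minus strand: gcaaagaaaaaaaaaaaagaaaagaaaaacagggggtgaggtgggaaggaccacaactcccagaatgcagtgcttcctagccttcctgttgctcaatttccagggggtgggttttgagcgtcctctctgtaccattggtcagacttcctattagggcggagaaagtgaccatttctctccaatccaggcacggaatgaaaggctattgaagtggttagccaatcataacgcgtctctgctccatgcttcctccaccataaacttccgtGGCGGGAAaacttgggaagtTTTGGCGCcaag
Mcm6, chr1:128359656-128359955, minus strand: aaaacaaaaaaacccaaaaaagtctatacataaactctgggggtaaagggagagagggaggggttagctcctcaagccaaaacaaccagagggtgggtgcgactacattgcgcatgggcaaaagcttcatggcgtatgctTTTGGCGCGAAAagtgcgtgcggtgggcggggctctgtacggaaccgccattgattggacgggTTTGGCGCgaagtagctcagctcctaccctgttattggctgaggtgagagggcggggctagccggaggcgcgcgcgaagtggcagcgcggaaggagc

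In the Mcm3 window GGCGGGAA began 18 bases after the start site and TTTGGCGC 38 bases after it. In the Mcm6 window TTTGGCGC began at -110 and again at -47, and the first copy overlapped a TTTCGCGC on the opposite strand, so the capitals form 1 longer run. Over the members, TTTGGCGC was found in 6 of 39 windows (15.4%), beside 0.514% of 32851 mouse windows of the same length. TTTCGCGC was in 7 member windows (17.9%, beside 0.323%) and GGCGGGAA in 7 (17.9%, beside 2.19%). At least 1 of these 3 was present in 17 windows of 16 members (43.6%, beside 2.96% of all windows). CCAAT, the letters bound by NF-Y and searched as a further promoter element, was in 23 windows (59%, beside 37.4%). A match is a description of letters and does not show a bound site. Many members were chosen as genes already known as E2F targets. Their higher shares of E2F letters may follow from that choice and are not a separate finding.

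Genes of origin recognition and licensing were lowest in MEKi 1 in 6 of 8 cases. Orc1, the largest subunit of the origin recognition complex, was 5.64, 6.65, 6.49 and 6.41, and Orc6, a further subunit, spanned 7.82 to 8.10. MEKi 1 stood 0.78 below the nearest array at this Orc1 probe set, while the other 3 arrays lay within 0.24 of each other. A second, dimmer Orc1 probe set had another order (4.94, 4.42, 4.97 and 4.39). There MEKi 1 was above both MEKi 2 and vehicle 2. Cdc6, which loads the helicase with Cdt1, was 8.33, 8.91, 8.73 and 8.72. Both vehicle arrays fell between the MEKi arrays, and the log2 fold change was -0.10 (SE 0.27, limma adjusted p = 1). Cdt1 went the other way between the same arrays, with 11.21 in MEKi 1 and 11.08 in vehicle 2 against 10.71 in MEKi 2 and 10.64 in vehicle 1. Gmnn, the geminin that inhibits Cdt1, spanned 8.69 in MEKi 2 to 9.20 in vehicle 2.

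Cdc45 and the GINS subunits join the Mcm ring to form the active helicase. Cdc45 was 7.07, 7.33, 7.56 and 7.57, below both vehicle values in both MEKi arrays. It had the lowest unadjusted p of the members (0.126 in limma, with an adjusted p of 1), with a log2 fold change of -0.36 (SE 0.19). Gins1 was 8.04 in MEKi 1 and between 8.32 and 8.64 in the other arrays. Gins2 was 7.64 in MEKi 1 and between 7.92 and 8.01 elsewhere.

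Among polymerases and their cofactors, the clamp Pcna was the steadiest of all members. Pcna, the sliding clamp that tethers polymerases to DNA, was 12.39, 12.35, 12.41 and 12.40, a range of 0.06. Both MEKi arrays were below both vehicle arrays, with a log2 fold change of -0.04 (SE 0.16, limma adjusted p = 1). Pola1, the catalytic subunit of the primase-associated polymerase, was 8.42, 8.08, 8.69 and 8.61. The labels did not overlap here either, and the log2 fold change of -0.40 (SE 0.20, adjusted p = 1) was the second lowest of the members. Pold1, the catalytic subunit of the lagging-strand polymerase, had the highest log2 fold change (0.29, SE 0.35, adjusted p = 1) with values of 9.10, 8.68, 8.22 and 8.98. The vehicle arrays, 0.76 apart, were on either side of MEKi 2.

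Pole, the catalytic subunit of the leading-strand polymerase, was lowest in MEKi 1 at 7.82 and highest in MEKi 2 at 8.50. Prim1, the primase subunit that makes RNA primers, spanned 8.88 to 9.20. Of the clamp loader genes, Rfc5 was among the narrowest members, at 9.02, 9.08, 8.93 and 9.04, and Rfc3 and Rfc4 spanned 8.15 to 8.50 and 8.87 to 9.13. Fen1, the nuclease that trims Okazaki fragments, was 9.60, 8.80, 8.91 and 9.84, one of the 8 widest ranges. It was about equally high in MEKi 1 and vehicle 2 and lower in MEKi 2 and vehicle 1, and Lig1, the ligase that seals the fragments, had the same order of arrays within a smaller span of 9.15 to 9.52.

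Enzymes of nucleotide supply did not move as 1 group. Tk1, the thymidine salvage kinase, was 8.69, 9.72, 9.80 and 9.16, and Tyms, which makes thymidylate, was 9.09, 10.07, 9.64 and 9.41. For both genes MEKi 1 was lowest and vehicle 2 next, while the highest array was vehicle 1 for Tk1 and MEKi 2 for Tyms. Dut, which removes dUTP, spanned 10.24 in MEKi 1 to 10.88 in MEKi 2. The ribonucleotide reductase genes had another order. Rrm1, its large subunit, was 10.13, 10.17, 9.99 and 10.21, a narrow range. A second Rrm1 probe set was lowest in vehicle 2 (8.81), the highest array at the main probe set. Rrm2, the small subunit made in S phase, was 10.67, 10.16, 10.52 and 10.79, lowest in MEKi 2, with a log2 fold change of -0.24 (SE 0.27, limma adjusted p = 1).

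The cyclins that drive S phase differed most between the vehicle arrays in the case of Ccne1. Ccne1, cyclin E1, was 7.12, 7.08, 6.39 and 7.52. The MEKi arrays agreed within 0.03 and lay between the vehicle arrays, which were 1.13 apart, and the log2 fold change was 0.15 (SE 0.44, limma adjusted p = 1). Ccne2, cyclin E2, was 6.45 in MEKi 1 and between 7.05 and 7.29 in the others. Ccna2, cyclin A2, spanned 9.98 in MEKi 1 to 10.58 in vehicle 1 at its brightest probe set. A second Ccna2 probe set was lowest in MEKi 2 (9.59) and highest in vehicle 2 (10.02), so the order of the arrays for this gene depended on the probe set.

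Of the E2F factors, E2f1 and E2f2 had the widest ranges of all members, and E2f1 was low in the arrays where E2f2 was high, whereas E2f8 varied by 0.75. By label all 3 had log2 fold changes below 0, and none passed the test. E2f1, an activator of S phase genes, was 7.04, 8.002, 8.41 and 7.66. MEKi 1 was lowest and vehicle 1 highest, and MEKi 2 exceeded vehicle 2. Its log2 fold change of -0.51 was the lowest of the members, with an SE of 0.47 and a limma adjusted p of 1. It was -0.03 without MEKi 1, -0.14 without vehicle 1, -0.99 without MEKi 2 and -0.88 without vehicle 2, so its size rested on single arrays. A second E2f1 probe set gave the same order (7.08, 7.80, 8.11 and 7.59).

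E2f2, a second activator that is also known for its role in lymphocytes, was 9.17, 6.12, 6.89 and 8.93. It was high in MEKi 1 and vehicle 2 and low in MEKi 2 and vehicle 1, a range of 3.05, the widest of the members. By label the log2 fold change was -0.26, with the largest SE of the members, 1.35. The second E2f2 probe set had the same order (7.08, 4.00, 4.51 and 6.46), and its values in MEKi 2 and vehicle 1 were near the array floor. E2f8, a repressor of E2F targets, followed the order of E2f1 within a smaller span, from 8.95 in MEKi 1 to 9.69 in vehicle 1. The E2f2 promoter is shown because this gene carried the widest difference, with the E2F letters in capitals as above.
E2f2, chr4:136172024-136172323, plus strand: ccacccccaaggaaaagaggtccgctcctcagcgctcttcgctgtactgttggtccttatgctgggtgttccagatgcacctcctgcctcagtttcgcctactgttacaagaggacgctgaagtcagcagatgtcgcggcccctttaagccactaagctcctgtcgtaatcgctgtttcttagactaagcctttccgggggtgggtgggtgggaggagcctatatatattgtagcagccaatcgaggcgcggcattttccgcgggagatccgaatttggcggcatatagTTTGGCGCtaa

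Its TTTGGCGC began 39 bases after the start site and a CCAAT 13 bases before it. A second start site of E2f2 in RefSeq had 0 matches to the E2F letters, as did the only E2f1 window searched (chr2:154569377-154569676). This says only that these letters are not in those windows. Whether that window is the main promoter of E2f1 was not examined, and other start sites of E2f1 were not searched.

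Of the genes of checkpoint, repair and chromatin, Chek1 had the widest range. Chek1, the kinase that halts the cycle when forks stall, was 7.86, 8.62, 8.95 and 8.23, in the same order of arrays as E2f1, and a second Chek1 probe set gave 6.46, 7.45, 7.86 and 7.01. Brca1, which acts in repair by recombination, was 8.19, 8.64, 8.49 and 8.46. The vehicle arrays were almost equal and lay between the MEKi arrays, with a log2 fold change of -0.06 (SE 0.23, limma adjusted p = 1). Uhrf1, which maintains DNA methylation behind the fork, spanned 9.43 to 9.74. Slbp, which binds histone mRNA, was highest in vehicle 2 at 11.07 and lowest in vehicle 1 at 10.58.

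**Figure D2:**
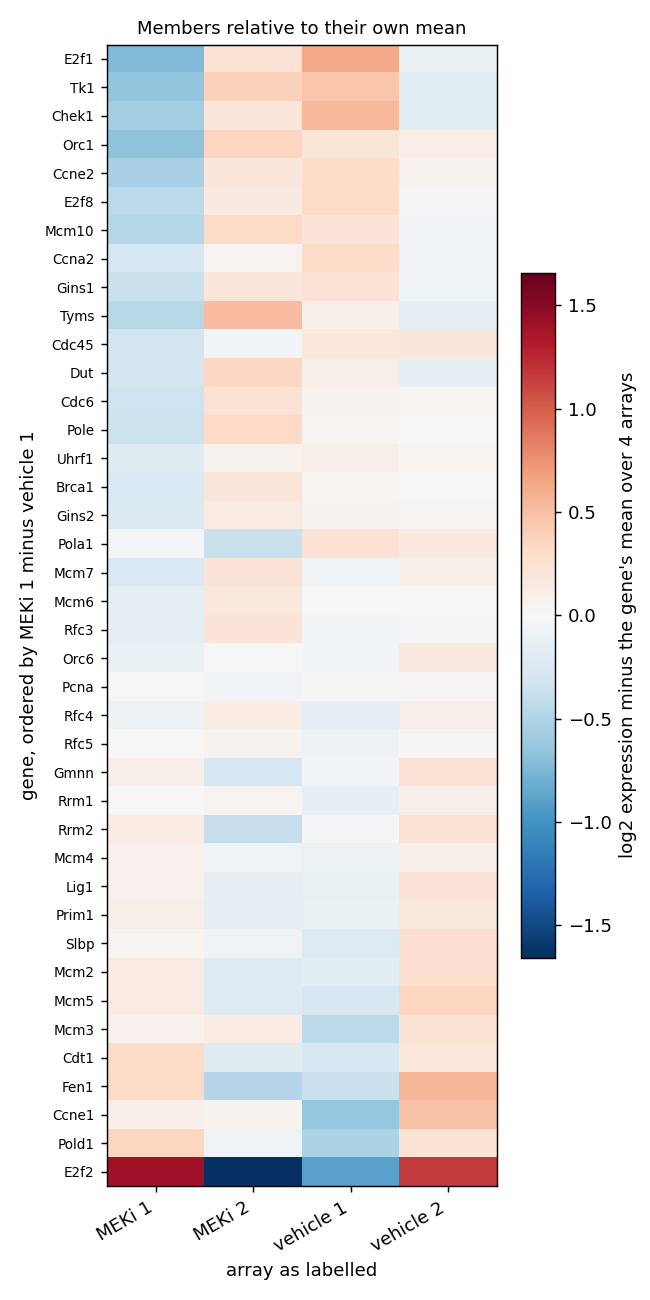
Log2 expression of each gene minus its own mean over the 4 arrays (color scale), with arrays as columns and genes as rows ordered by the difference of MEKi 1 from vehicle 1. E2f1, Tk1 and Chek1 at the top are lowest in MEKi 1, whereas E2f2 at the bottom is high in MEKi 1 and vehicle 2 and low in the other arrays.

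Differences between single arrays were described without a test, since each side is 1 array, and pairs that share an array are not independent. MEKi 1 was lower than vehicle 1 in 23 of 40 members (57.5%, beside 49.4% of genes) with a median of -0.13. The extremes were -1.36 for E2f1 and 2.29 for E2f2, and 4 members (Tk1, E2f1, Chek1 and E2f2) were over 1 log2 unit apart, that is 10.0% beside 15.4% of genes. Thus 3 of these 4 were lower in MEKi 1 and E2f2 was higher. MEKi 2 was lower than vehicle 2 in 19 members (47.5%, beside 48.3%) with a median of 0.02 and extremes of -2.81 for E2f2 and 0.66 for Tyms. Fen1 and E2f2, 5.0% of members, were over 1 unit apart in that pair, beside 17.4% of genes.

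The most lopsided pair was that of the most similar arrays. MEKi 1 was lower than vehicle 2 in 37 of 40 members (92.5%, beside 55.0% of genes), and Cdt1, Pold1 and E2f2 were the 3 exceptions. The differences were small, with a median of -0.23 beside -0.03 over all genes, and none was over 1 log2 unit apart (1.12% of genes were). The extremes were -0.78 for Orc1 and 0.24 for E2f2. All of these values are from the brightest probe set of each gene. Further probe sets of Mcm2, Mcm3, Mcm5, Orc1 and Rrm1, among others, were higher in MEKi 1 than in vehicle 2. Those of Mcm7, Rrm2 and E2f1, among others, were lower in MEKi 1. By contrast MEKi 2 was lower than vehicle 1 in 18 members (45.0%, beside 44.1%) with a median of 0.05, from -0.76 for E2f2 to 0.69 for Ccne1, and again 0 were over 1 unit apart, beside 6.6% of genes.

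The members also differed between arrays of the same label. MEKi 1 was lower than MEKi 2 in 25 members (62.5%, beside 53.0% of genes), with a median of -0.23, and Orc1, Tk1 and E2f2 (7.5% of members) were over 1 unit apart, beside 19.9% of genes. Vehicle 1 was lower than vehicle 2 in 22 members (55.0%, beside 51.9%), with a median of -0.02, and Ccne1 and E2f2 (5.0%) were over 1 unit apart, beside 11.7% of genes. The 2 same-numbered pairs went opposite ways in 34 of 40 members: 19 were lower in MEKi 1 than in vehicle 1 and higher in MEKi 2 than in vehicle 2, and 15 the reverse. Rfc4 and Rfc5 were higher in the MEKi array of both pairs, and Orc6, Cdc45, Pcna and Pola1 were lower in both. A second Rfc4 probe set was lower in the MEKi array of both pairs (-0.09 and -0.23), so its direction depended on the probe set. The share of all genes that went opposite ways was not counted, so this is not read as particular to the members. Over all 45037 probe sets, deviations of same-numbered arrays from their label means had r = -0.76.

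**Figure D3:**
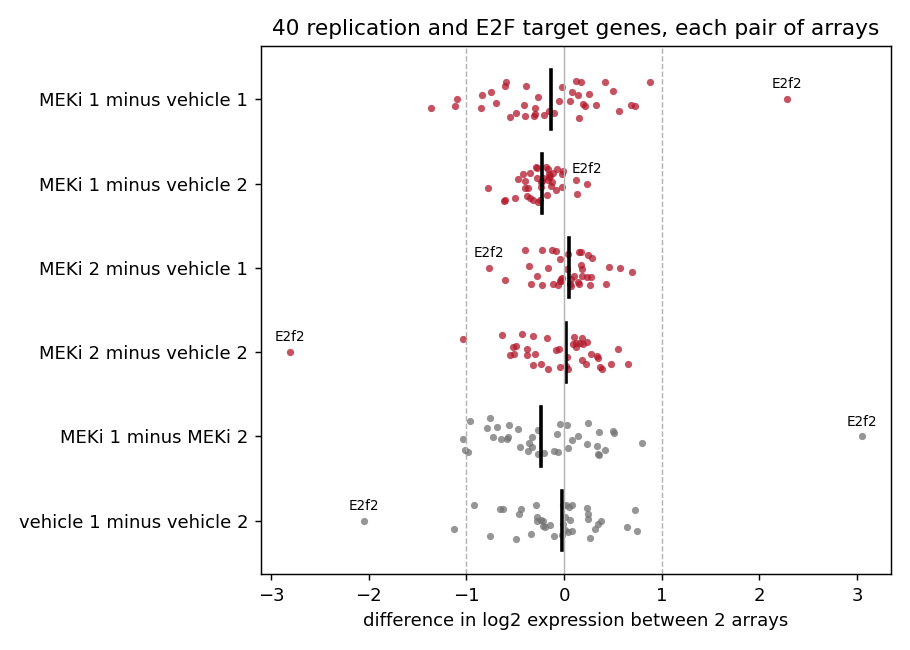
Difference in log2 expression between 2 arrays (x axis) for the 40 genes (points) in each of the 6 pairs of arrays (rows), with the median as a black bar and dashed lines at 1 log2 unit. Red rows compare labels and gray rows compare arrays of 1 label. Nearly all points are below 0 for MEKi 1 minus vehicle 2, and E2f2 is the farthest point in 5 rows, from -2.81 to 3.05.

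MEKi 1 was the lowest array for 21 of the 40 members and the highest for 3. Vehicle 2 was the lowest for 0 and the highest for 14, MEKi 2 was the highest for 13 and vehicle 1 for 10. The same counts were not made over all genes, so these are not read as particular to the members. The range over the 4 arrays had a median of 0.59, beside 0.55 over all genes and 0.65 for genes not below a mean expression of 3.88. A range over 1 log2 unit was found in 7 members (17.5%), beside 25.4% of genes, and 16 members varied by less than 0.5. The genes outside the members whose values were most like the mean of the members, each centred on its own mean, were Egr1 (r = 0.950), Abcb4 (r = 0.886) and Mlxipl (r = 0.860), among 4335 genes with a range of at least 1. Il22ra2, Twist2, Serpinb2, Cxcl14, Fasn, Zfp566 and Serpinb8 (r = 0.729) came next. These correlations are over 4 arrays, are descriptions only, and followed a member mean that ran only from -0.12 in MEKi 1 to 0.12 in vehicle 2.

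A wider list of replication genes and E2F pathway genes, with 53 of 61 measured and none of them a member, had 0 calls. Its median log2 fold change was 0.01, and 5 were above (9.43%, beside 11.0% of all genes) and 6 below (11.3%, beside 10.2%) in both MEKi arrays. MEKi 1 was lower than vehicle 2 in 29 of these 53 genes (54.7%, beside 55.0%), with a median of -0.07. The same pair gave 92.5% among the 40 members, so that share did not extend to this list. MEKi 1 was lower than vehicle 1 in 23 of the 53 genes (43.4%, beside 49.4%). The members farthest down in that pair were E2f7, a repressor like E2f8 (6.93, 8.03, 8.06 and 7.39), and Wee1, a kinase that holds back entry into mitosis (8.48, 9.04, 9.24 and 8.72). Those farthest up were Rbl2, the retinoblastoma relative p130 that represses E2F targets in resting cells (9.95, 8.43, 8.74 and 9.81), and Gins3 (7.19, 6.41, 6.20 and 6.92). E2f7 was thus low in MEKi 1 and vehicle 2, whereas Rbl2 and Gins3 were high in both.

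Genes of mitosis, which act after S phase, were lower in MEKi 1 than in vehicle 1 in 18 of 19 measured genes (94.7%, beside 49.4% of all genes), with a median of -0.67. The medians of the list were 8.62, 9.30, 9.30 and 9.03, lowest in MEKi 1 and about equal in MEKi 2 and vehicle 1. In the other same-numbered pair 6 of the 19 were lower in MEKi 2 than in vehicle 2 (31.6%, beside 48.3%). Gene by gene, 14 of the 19 were lower in MEKi 2 than in vehicle 1 (73.7%, beside 44.1%), with a median of -0.14. All 19 were lower in MEKi 1 than in vehicle 2 (100%, beside 55.0%), with a median of -0.30. Cenpf, a kinetochore protein, was farthest down from vehicle 1 to MEKi 1 (8.59, 9.94, 10.08 and 9.15). Ttk, a spindle checkpoint kinase, was next (7.90, 8.80, 9.01 and 8.42). Plk1, a mitotic kinase, differed by -0.17 and Mki67, which encodes the proliferation marker Ki-67, by 0.17, the only one that was higher in MEKi 1. Both MEKi arrays were below both vehicle arrays in 5 mitotic genes (26.3%, beside 10.2% of all genes), and 0 were called.

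Upstream of E2F, the D cyclins diverged. Ccnd1, cyclin D1, was 10.45, 12.06, 12.53 and 11.68, whereas Ccnd2, the D cyclin of lymphocytes among other cells, was 11.50, 8.42, 9.43 and 11.54. Ccnd1 was lowest in MEKi 1 and highest in vehicle 1, and Ccnd2 was high in MEKi 1 and vehicle 2. The inhibitor Cdkn2c was next farthest down from vehicle 1 to MEKi 1 (8.99, 10.11, 10.44 and 9.25) and Cdkn2a next farthest up (5.50, 4.15, 3.75 and 5.20). Of the 12 genes of this list 0 were called. Only Cdkn1a, the inhibitor p21, was below both vehicle arrays in both MEKi arrays (8.53, 8.27, 8.97 and 8.63). That is 8.33% of the list, beside 10.2% of all genes, so the share was not above its background.

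Lymphocyte markers divided the arrays as E2f2, Ccnd2 and Fen1 did. All 8 measured of 9 B cell markers were higher in MEKi 1 than in MEKi 2 and higher in vehicle 2 than in vehicle 1, and their summed linear levels were 19121 and 13992 in MEKi 1 and vehicle 2 but 357 and 581 in MEKi 2 and vehicle 1. The defining B cell gene Ms4a1 (CD20) was 12.21, 3.97, 4.15 and 11.61, so it was at the array floor in MEKi 2 and vehicle 1. Of 10 T cell markers 8 were measured, with medians of 9.87, 5.52, 6.26 and 9.80, and 5 of 6 markers of high endothelial venules and lymph node stroma had medians of 11.53, 3.82, 3.73 and 11.28. For 6 of 7 germinal centre markers the medians were 7.70, 6.06, 6.51 and 7.99. Of these 6, 5 were higher in MEKi 1 than in MEKi 2 and in vehicle 2 than in vehicle 1. S1pr2 went the other way (7.84, 8.31, 8.34 and 8.01), and Bcl6 hardly differed between vehicle 1 and vehicle 2 (9.13 and 9.21). Macrophage and monocyte markers had the order of E2f1 and Chek1 at their ends, from 9.30 in MEKi 1 to 10.76 in vehicle 1. The part of these cell types in the member values was not tested. In bulk tumor RNA fewer cells of a type and less RNA per cell cannot be told apart.

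**Figure D4:**
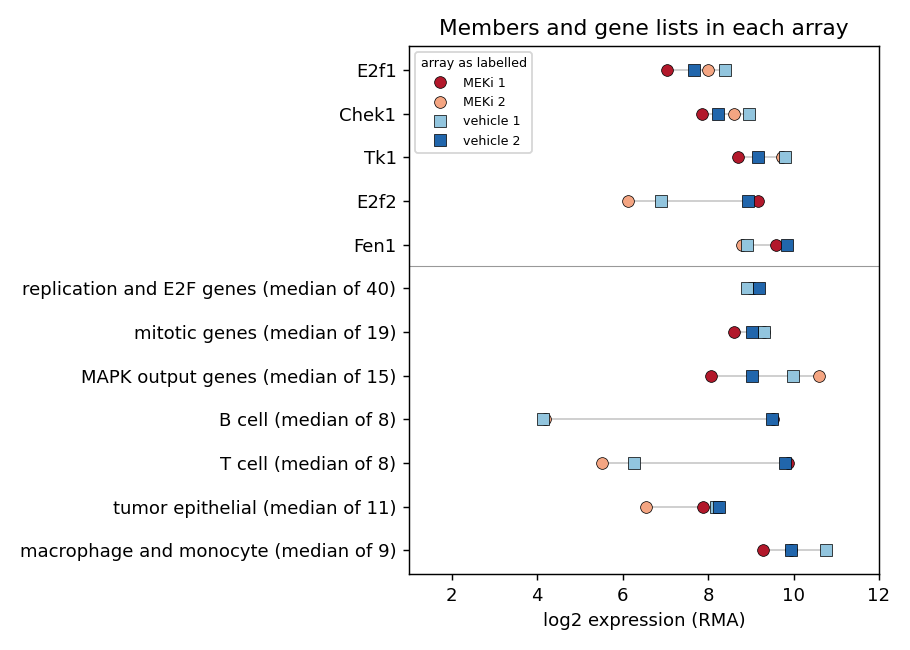
Log2 expression (RMA, x axis) in each array of 5 members (upper rows) and the median of gene lists (lower rows), with circles for MEKi and squares for vehicle. E2f2 and Fen1 are high in MEKi 1 and vehicle 2, as are the B cell and T cell medians, while E2f1, Chek1 and Tk1 are low in both, and the median of all 40 members stays between 8.92 and 9.18.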

How the data were processed

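Total RNA of 4T1Ch9 tumors (PureLink extraction) was hybridized to 4 Affymetrix MG-430PM arrays, 2 for MEKi and 2 for vehicle, grouped by sample title. The authors deposited log2 expression values per probe set, background corrected and quantile normalized by RMA with AFFY in R. No filter is stated. The number of arrays limits the precision. Whether the 2 arrays of a group are separate mice is not stated, so the p-values reflect array-to-array spread alone, which may be technical.

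Of 45141 probe sets 104 controls were left out. Of 45037 tested, 28898 had 1 gene symbol, 551 several and 15588 none, and all 40 measured members matched RefSeq by Entrez identifier. Among the 23 members with several probe sets, 29 of 34 further probe sets had the sign of the main one for MEKi 1 minus vehicle 1, and 20 of 34 by label. limma 3.58.1 in R 4.3.3 (lmFit, eBayes) was used for the comparison by label, and the fit was tested on simulated data. Tables and figures used Python 3.11.15, numpy 2.4.6, pandas 2.3.3 and matplotlib 3.10.9. A promoter match was an exact match on either strand.

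Members and gene lists were chosen with earlier results of these data known. By rule, statistics were given for 1 member per role, the 2 highest and the 2 lowest fold changes, values for the 8 widest and 4 narrowest ranges, and the 2 extremes of each further list. Other values were chosen to give the range of each member. Cdc45, E2f2's fold change, Cdkn1a and Ms4a1 were named after their values were seen. The likeness to members was Pearson's r over 4 arrays. Alternatives were an adjusted p under 0.05, other variance settings, filters, centring, probe set rules, leaving out each array and the replicate number as a block. Some genes are not reported here.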

Additional observations from a re-analysis of the deposited data

How the results depend on the processing

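The count of 0 called members held under all alternatives. Called probe sets also stayed at 0, except that centring on tumor epithelial markers gave 7, all higher in MEKi and 0 of them members. That centring moved the median of all probe sets to 1.01, and centring on reference genes moved it to -0.11, so changes under both are relative to that shift. With the replicate number as a block (a paired fit) 0 probe sets were called. The members' median was -0.08 in that fit too, because a balanced block leaves the fold changes unchanged by construction. The labels do not state what a number marks, and deviations of same-numbered arrays had r = -0.76. With crossed numbers as a block, chosen after seeing the data, 0 probe sets and 0 members were called.

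Centred on tumor epithelial markers, the median log2 fold change of members became 0.92, with 21 members above in both MEKi arrays (52.5%, beside 66.2% of genes under that centring) and 0 below (beside 0.491%). The pair medians became 0.16 (MEKi 1 minus vehicle 1), 0.13 (MEKi 1 minus vehicle 2), 1.70 (MEKi 2 minus vehicle 1), 1.73 (MEKi 2 minus vehicle 2) and -1.59 (MEKi 1 minus MEKi 2). Mcm2 (0.92), Cdc6 (0.90), Pcna (0.96), Rrm2 (0.76), E2f1 (0.49), Brca1 (0.94) and Pola1 (0.61) turned positive. Centred on reference genes, 11 members were below in both MEKi arrays (27.5%, beside 17.0% of genes), the members' median became -0.20, and the pair medians became -0.02 (MEKi 1 minus vehicle 1), -0.11 (MEKi 2 minus vehicle 1), -0.32 (MEKi 2 minus vehicle 2), 0.031 (MEKi 1 minus MEKi 2) and -0.20 (vehicle 1 minus vehicle 2). With the probe sets of a gene averaged, 2 members were above in both MEKi arrays (5.0%, beside 11.4% of genes), and Mcm2 (0.023) and Brca1 (0.032) turned positive. The epithelial centring used the median of 11 markers, which were split between MEKi 1 and MEKi 2 as given above. Beyond the shift that each centring adds by construction, the cause was not tested.

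Leaving out each array in turn, the members' median ran from -0.16 (without MEKi 2) to 0.02 (without MEKi 1). The log2 fold change ran from -0.31 to 0.15 for Mcm2, -0.39 to 0.19 for Cdc6, -0.50 to 0.020 for Rrm2, -0.42 to 0.71 for Ccne1, -0.28 to 0.17 for Brca1, -0.083 to 0.67 for Pold1 and -0.12 to 0.54 for Mcm3, so the direction of these 7 rests on single arrays. E2f1 ran from -0.99 to -0.03 and Pola1 from -0.57 to -0.23, and Pcna from -0.058 to -0.015. In these fits the lone array of a group is assumed to vary like the other group.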
